A study of Mus musculus with 3 samples.

Results

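Interferon-stimulated genes were followed through droplet single-cell RNA sequencing of whole mouse prostate. A list of 34 such genes was matched by symbol to the 32594 genes of the deposited matrices. It found a row for 32 of them, while Mx1 and Mx2 are not analysed here. The groups were 1 library of Srd5a2 knockout tissue and 2 libraries of Srd5a2 heterozygous tissue. All came from C57BL6 mice labelled 12 to 15 weeks old, with no treatment of the animals, and the controls therefore carried 1 mutant allele rather than none. Before sequencing, tissue spent 2 h at 37 °C in collagenase with a ROCK inhibitor, DNase I and added dihydrotestosterone, and transcript levels were read after that incubation. Srd5a2 encodes the steroid 5α-reductase that turns testosterone into dihydrotestosterone. Srd5a2 itself gave 17 UMIs (unique molecular identifiers, each a counted RNA molecule) in the knockout library against 145 and 210 in heterozygous libraries 1 and 2. These are 0.132, 3.05 and 2.08 CPM (counts scaled to the library total), and which part of the gene was deleted is not stated in the sources used here.

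Interferons are secreted proteins that warn cells of infection. Type I interferons (alpha, beta) act through the receptor Ifnar1 and Ifnar2 and a complex that holds Stat2 and Irf9 and binds the interferon-stimulated response element (ISRE). Interferon gamma, made by T and NK cells, acts through Ifngr1 and Ifngr2 and on genes with the gamma-activated site (GAS). Many genes answer to both, so the names used here, type I-like for Isg15, Ifit1, Ifit2, Ifit3 and Rsad2 and gamma-like for Gbp2, Gbp3, Gbp7, Iigp1 and Irf1, mark gene groups and not a ligand. By role the members are the ISG15 system and IFIT proteins (5 genes), antiviral effectors (14 listed, 12 with a row), RNA sensors (3), transcription factors (4), interferon-induced GTPases (6) and immunoproteasome subunits (2).

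Promoter sequences were searched for both elements, which were not used to form the groups. Windows of 300 bases, from 250 before to 50 after the annotated start, were taken from RefSeq (build GRCm38.p6) for 26 of the members. The ISRE was searched on both strands as GAAA, any 2 bases and GAAA again, and was present in 16 of 26 members (61.5%), against 1079 of 27025 genes with a window (3.99%). The GAS was searched as TTCNNNGAA, which reads the same on both strands, and was present in 8 of 26 members (30.8%), against 2582 of all genes (9.55%). The 250 bases before the start are given below, 5′ to 3′ on the gene's strand, for 2 type I-like genes (Isg15 at chr4:156200819-156201068, minus strand, and Ifit1 at chr19:34640639-34640888, plus strand) and 2 gamma-like genes (Irf1 at chr11:53769764-53770013 and Gbp7 at chr3:142530086-142530335, both plus strand). They were chosen as examples of each element, and capitals mark the matches.
Isg15: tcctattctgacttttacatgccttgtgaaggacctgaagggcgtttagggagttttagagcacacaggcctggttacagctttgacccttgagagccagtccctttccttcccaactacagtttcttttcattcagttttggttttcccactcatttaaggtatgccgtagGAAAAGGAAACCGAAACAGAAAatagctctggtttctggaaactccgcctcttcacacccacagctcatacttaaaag
Ifit1: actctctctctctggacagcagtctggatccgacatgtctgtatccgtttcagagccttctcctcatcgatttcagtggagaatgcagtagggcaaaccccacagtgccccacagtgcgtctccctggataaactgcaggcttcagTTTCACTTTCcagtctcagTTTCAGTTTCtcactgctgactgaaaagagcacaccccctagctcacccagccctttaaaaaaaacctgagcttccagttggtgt
Irf1: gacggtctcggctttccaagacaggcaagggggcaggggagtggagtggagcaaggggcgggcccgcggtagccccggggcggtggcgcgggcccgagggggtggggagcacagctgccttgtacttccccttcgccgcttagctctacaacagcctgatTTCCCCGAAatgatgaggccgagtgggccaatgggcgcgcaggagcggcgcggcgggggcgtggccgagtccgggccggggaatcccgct
Gbp7: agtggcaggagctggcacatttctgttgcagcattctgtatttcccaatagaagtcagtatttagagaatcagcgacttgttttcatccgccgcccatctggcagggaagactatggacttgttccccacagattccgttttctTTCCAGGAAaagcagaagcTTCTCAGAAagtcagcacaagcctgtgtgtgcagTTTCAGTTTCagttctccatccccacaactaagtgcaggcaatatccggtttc
Isg15 held 3 overlapping ISRE matches between bases -78 and -57 counted from the start, and Ifit1 held 2, at -104 to -95 and at -85 to -76. Irf1, a transcription factor that itself drives GTPase genes, held 1 GAS at -90 to -82 and no ISRE match in the window. Gbp7, a GTPase that acts on vacuoles of intracellular microbes, held 2 GAS matches and 1 ISRE. The gamma-like group was therefore not free of the ISRE: 3 of its 4 genes with a window held it, as did 4 of the 5 type I-like genes. A match describes letters and does not show that a factor binds.

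After filtering, 9168 knockout, 4533 heterozygous 1 and 9671 heterozygous 2 cells remained, with 111896496, 44609388 and 83053558 UMIs and medians of 4407.5, 6990.0 and 4914.0 UMIs per cell. The lowest total of a kept cell was 2466 UMIs in heterozygous library 1, but 820 in the knockout and 701 in heterozygous 2. The deposited libraries shared 15 to 57 barcodes by pair. Cells were clustered without the interferon genes and named from marker genes. Whole classes differed in share: T or NK cells were 240 of the knockout cells but 13 and 70 of the heterozygous, and secretory luminal cells were 13.2%, 39.4% and 34.9%. Seminal vesicle-like cells, in a library labelled prostate, were 18.3%, 7.88% and 5.37%.

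Endothelial cells stood at the top of both gene groups. Summed type I-like CPM, taken over all UMIs of the class in a library, were 1371, 1329 and 1673 in endothelial cells (knockout, heterozygous 1, heterozygous 2), and gamma-like CPM were 2451, 3355 and 3237. The gamma-like range did not overlap that of any other class: smooth muscle, next in order, had 259, 605 and 449. From smooth muscle down to seminal vesicle-like cells each class overlapped the next, and secretory luminal cells lay apart below them. For type I-like genes macrophages came next with 590, 1838 and 1611, followed by dendritic cells with 92.6, 1165 and 496, and neighbours in the type I-like order overlapped throughout. The dendritic values rest on 35, 25 and 32 cells. Secretory luminal cells, which make the bulk of prostatic fluid, lay low in both: 39.2, 31.1 and 30.9 CPM type I-like and 12.0, 8.95 and 8.56 gamma-like. Barcodes with fewer than 500 genes carried 50.9 type I-like and 86.9 gamma-like CPM in the knockout and 21.5 and 40.7 in heterozygous 2. Heterozygous 1 had 2 such barcodes, too few for a level. Whether these barcodes hold free RNA, poor cells or small cells was not tested, so their levels serve only as a cautious limit. Secretory luminal, ionocyte and seminal vesicle levels near or under these values are not read as expression by the cells.

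**Figure D1:**
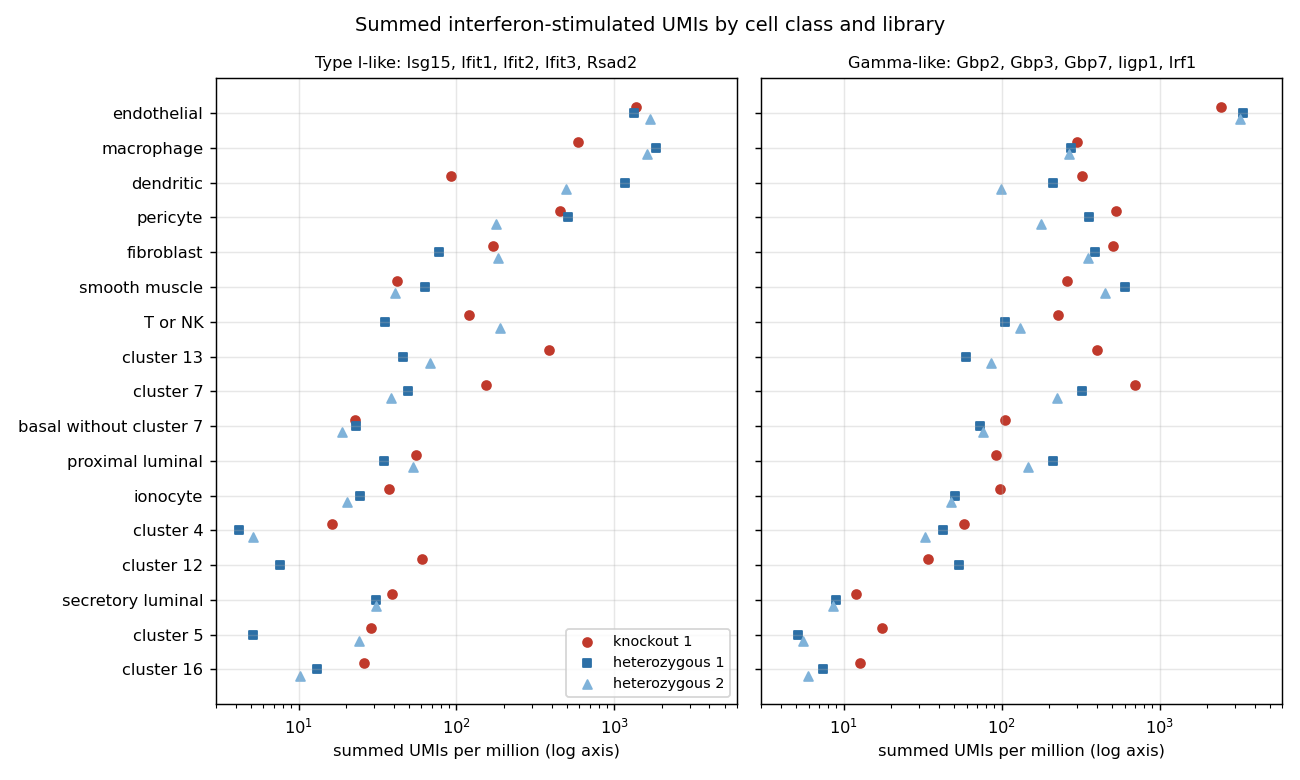
Summed CPM of 5 type I-like genes (left) and 5 gamma-like genes (right) on log axes, 1 point per library, for sets with more than 50000 UMIs in that library; sums of 0 are not drawn. Endothelial cells lie at or near the right edge in all 3 libraries, and the knockout point of cluster 13 lies to the right of both heterozygous points in both panels.

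Of the 32 members, 25 had their highest mean CPM in endothelial cells. The share of all genes that were highest there was not counted. Some of the 25 were close to the next class, such as Bst2 (mean 296.6 CPM, against 295.8 in macrophages). Macrophages held the highest mean for 4 members: Ifih1, the RNA sensor MDA5 (270, 285 and 444 CPM), Ifit1, which binds foreign RNA (42.8, 302 and 285), Rsad2, the antiviral enzyme viperin (253, 630.1 and 630.7), and Oas1a. Dendritic cells held it for both immunoproteasome subunits and for Oas3. Psmb8 there was 446, 444 and 343 CPM and Psmb9 was 282, 244 and 117. Iigp1, a GTPase against intracellular parasites, showed the widest range among the genes named here: 1100, 1464 and 1750 CPM in endothelial cells against 1.65, 0.874 and 0.507 in secretory luminal cells. Isg15, a ubiquitin-like protein, was 491, 640 and 726 in endothelial cells and 253, 768 and 610 in macrophages, so those classes overlapped. Igtp gave 23 UMIs, Oas3 53 and Oas2 60 in all kept cells, so the class in which each was counted as highest rests on few UMIs. Ifit, Oas and Gbp genes have close copies, and how reads shared between copies were assigned is not given in the sources used here, so their levels are uncertain to that extent.

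Tested with the library as a term, each of the 30 members that passed the filter on low counts was higher in endothelial than in secretory luminal cells, with a median log2 difference of 4.67 and a range of 1.32 to 10.46. Across all genes tested 55.6% were called in that contrast (23.8% higher). Iigp1 differed by 10.46 ± 0.81 (log2, standard error, edgeR adjusted p = 8.42e-12), Gbp2 by 8.72 ± 0.64 (2.28e-12) and Isg15 by 4.65 ± 0.53 (1.88e-08). Macrophages against endothelial cells split the members: 13 of 30 were lower, 1 was higher and 16 were not called, where 27% of all genes were called (14% lower, 13% higher). The lower genes included Iigp1 (-5.78 ± 0.81), Gbp2 (-3.12 ± 0.61), Gbp7 (-2.81 ± 0.40) and Irf1 (-1.87 ± 0.34), and the higher one was Ifih1 (1.92 ± 0.30, adjusted p = 4.55e-06). The type I-like genes Isg15 (0.02 ± 0.54), Ifit1 (0.28 ± 0.72) and Rsad2 (0.39 ± 0.49) were not called between these classes. Between the luminal classes, 18 of 30 members were higher in proximal than in secretory luminal cells and none lower, with 49.3% of all genes called (21.6% higher). Irf1 was 4.02 ± 0.31 higher (1.55e-11), while Isg15 (-0.42 ± 0.57) and Rsad2 (-1.21 ± 0.67) did not pass.

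The balance of the groups differed by class. The log2 ratio of type I-like over gamma-like UMIs compares classes only, since the genes differ in length and capture. It was positive in every library in macrophages (0.99, 2.73 and 2.58), in secretory luminal cells (1.71, 1.80 and 1.85) and in cluster 16, an unnamed cluster of few UMIs. It was negative in every library in 7 of 13 fitted sets, lowest in smooth muscle (-2.63, -3.25 and -3.47), and also in basal cells (-2.19, -2.06 and -2.15) and endothelial cells (-0.84, -1.34 and -0.95). Irf1 alone made up much of the gamma-like sum in several of them. As means over libraries it was 132 of 150 CPM in proximal luminal cells, 234 of 417 in fibroblasts, 37.3 of 65.6 in ionocytes and 208 of 438 in smooth muscle, but 556 of 3015 in endothelial cells. The ratio without Irf1 was not tested. The secretory luminal and cluster 16 ratios rest on levels near or under those of shallow barcodes and are not read as a balance within those cells. Type I-like levels also lay under those of shallow barcodes in at least 1 library in smooth muscle (41.8, 63.5 and 40.7 CPM). The same held in basal cells (68.9, 27.3 and 21.0) and ionocytes (37.3, 24.7 and 20.4), another negative set. How negative these ratios are is therefore uncertain. With broader lists the secretory luminal ratio was 0.32, 0.10 and 0.20, and that of cluster 16 was 0.44, -0.28 and -0.69. Macrophages stayed positive (0.69, 2.27 and 2.10) and smooth muscle negative (-2.32, -2.99 and -3.28).

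**Figure D2:**
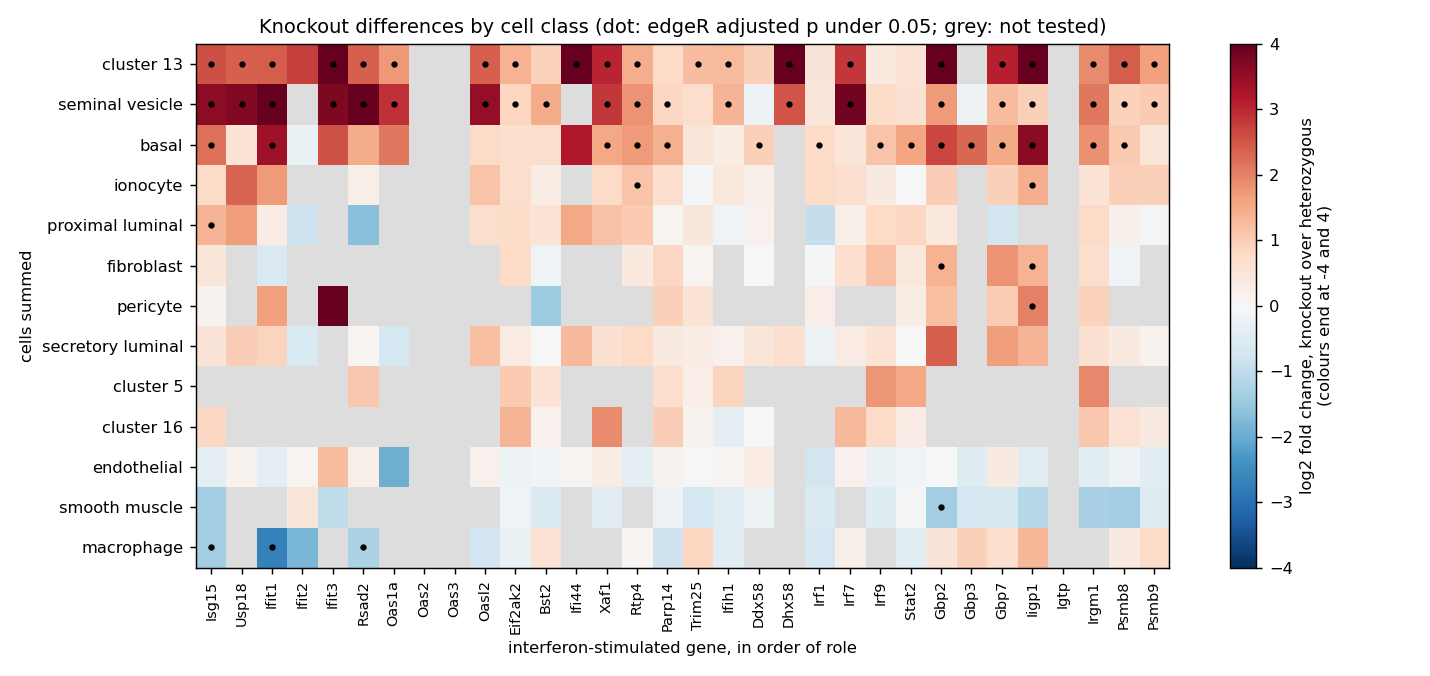
Log2 fold change of each member, knockout over heterozygous, in 13 sets of cells (rows), with a dot where the edgeR adjusted p is under 0.05. Cluster 13, seminal vesicle and basal rows hold 21, 21 and 15 dots, all on the higher side, the endothelial row none, and the macrophage row 3 on the lower side.

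Between genotypes, the members were called most often in cluster 13, seminal vesicle-like cells and basal cells. None was called in the endothelial cells that expressed most of them highest. The endothelial fit rests on 501022, 222041 and 248043 UMIs, against 7488226, 3811766 and 1741823 in cluster 13. Counts of calls are therefore not directly comparable between sets. Members called higher numbered 21 of 28 tested in cluster 13 (background 5.47% of all genes called, 2.85% higher), 21 of 27 in seminal vesicle-like cells (10.8%, 5.76% higher) and 15 of 28 in basal cells (3.97%, 2% higher). They numbered 2 of 23 in ionocytes (1.81%, 0.855% higher), 2 of 17 in fibroblasts (1.51%, 0.668% higher), 1 of 12 in pericytes (2.46%, 1.35% higher) and 1 of 24 in proximal luminal cells (2.04%, 1.4% higher). With DESeq2 the counts were 12, 10 and 4 in cluster 13, seminal vesicle-like and basal cells and 0 in the other sets with a call. DESeq2 called few genes of any kind: 83 of 18803 with a UMI in cluster 13, 397 of 22675 in seminal vesicle-like cells and 64 of 22244 in basal cells. In the other sets with a call it called 12 (pericytes) to 50 (smooth muscle) of all genes, so the 0 there is not particular to the members. None passed of 27 in secretory luminal cells (0.0894%), 28 in endothelial cells (1.39%), 9 in cluster 5 (0.482%) and 14 in cluster 16 (2.98%); unadjusted edgeR p-values under 0.05 numbered 6, 2, 2 and 2 there. In secretory luminal cells 14 of all genes were called here, against 278 with median-ratio size factors, where 2 members were called, so the 0 there depends on settings such as the scaling. Members called lower were 3 of 20 in macrophages (1.71%, 1.11% lower) and 1 of 20 in smooth muscle (1.31%, 0.731% lower). These p-values rest on 1 knockout library, which is assumed to vary as the 2 heterozygous ones do, with 1 residual degree of freedom; permuting 1 against 2 libraries cannot give a p below 0.33. Nothing in the labels says how many animals a library holds. In the values that follow, CPM of a gene are scaled by TMM within the set.

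Cluster 13 was an epithelial cluster led by Wfdc15b, Sprr2f and Folr1, with Krt8, Krt7 and some seminal vesicle markers, and was left unnamed because none of those markers was among its leading genes. It held 396 knockout, 293 heterozygous 1 and 86 heterozygous 2 cells. All 28 members tested, and 41.2% of all genes, were above both heterozygous libraries in the knockout, with a median log2 fold change of 2.38 against -0.0352 over all genes. In the genotype fits the filter on low counts needs enough UMIs in only 1 library, the size of the knockout group. A gene high in the knockout alone, such as Iigp1, thus passes and must lie above both. The count and the median therefore describe the members and are not support. Iigp1 gave 837 UMIs in the knockout against 2 and 3, or 106, 0.533 and 1.79 CPM. Gbp2, a guanylate-binding GTPase, gave 1148 against 18 and 18 UMIs, or 145, 4.80 and 10.7 CPM. Both heterozygous values of each gene lay far under the knockout value. Iigp1 rose by 6.70 ± 0.50 on the log2 scale (edgeR adjusted p = 1.19e-25) and Gbp2 by 4.27 ± 0.40 (7.71e-18).

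Type I-like genes rose in the same cluster. Ifit3 was 49.1 CPM against 1.07 and 4.17 (log2 fold change 4.44 ± 0.45, 4.71e-16). Isg15 was 130 against 25.6 and 14.9 (2.56 ± 0.36, 8.42e-09), and Ifit1 was 110 against 9.86 and 31.6 (2.42 ± 0.38, 1.43e-07). For Ifit1 the heterozygous libraries stood apart, so the knockout difference was 3.43 against heterozygous 1 and 1.79 against heterozygous 2, but neither reached the knockout level. Rsad2 was 73.5 against 9.59 and 18.5 (2.38 ± 0.36). Ifit2, with 34, 1 and 2 UMIs, missed the threshold (2.78 ± 1.05, adjusted p = 0.106), and its ratio of 7.79 has an exact counting interval of 2.45 to 39.6.

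Among antiviral effectors Ifi44 was 17.3 against 0.799 and 1.19 CPM (4.11 ± 0.58, 6.47e-09) and Xaf1, a promoter of cell death, had 298 UMIs against 15 and 8 (3.05 ± 0.40, 5.50e-10). Oas1a, Oasl2, Eif2ak2, Rtp4 and Trim25 also rose, while Bst2 (0.93 ± 0.35) and Parp14 (0.79 ± 0.38) did not pass. Irf7, the factor that amplifies type I interferon responses, had 270 UMIs against 15 and 9 (2.84 ± 0.41, 9.56e-09). The other transcription factors did not pass: Irf1 was 94.3 against 51.2 and 72.8 CPM (0.53 ± 0.37), Stat2 0.58 ± 0.35 and Irf9 0.39 ± 0.35. Of the GTPases Gbp7 (268, 13 and 7 UMIs; adjusted p = 9.16e-10) and Irgm1 (1.90 ± 0.37) also rose. The immunoproteasome subunits Psmb8 and Psmb9, which trim peptides for antigen display, rose by 2.43 ± 0.37 (6.16e-08) and 1.65 ± 0.35. Usp18, which removes ISG15 from proteins, and the sensor Ifih1 rose by 2.38 ± 0.50 and 1.26 ± 0.36. The sensor Dhx58 had 26 UMIs against 0 and 0, which is at least 5.95-fold higher (floor of 3 UMIs over both heterozygous libraries).

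**Figure D3:**
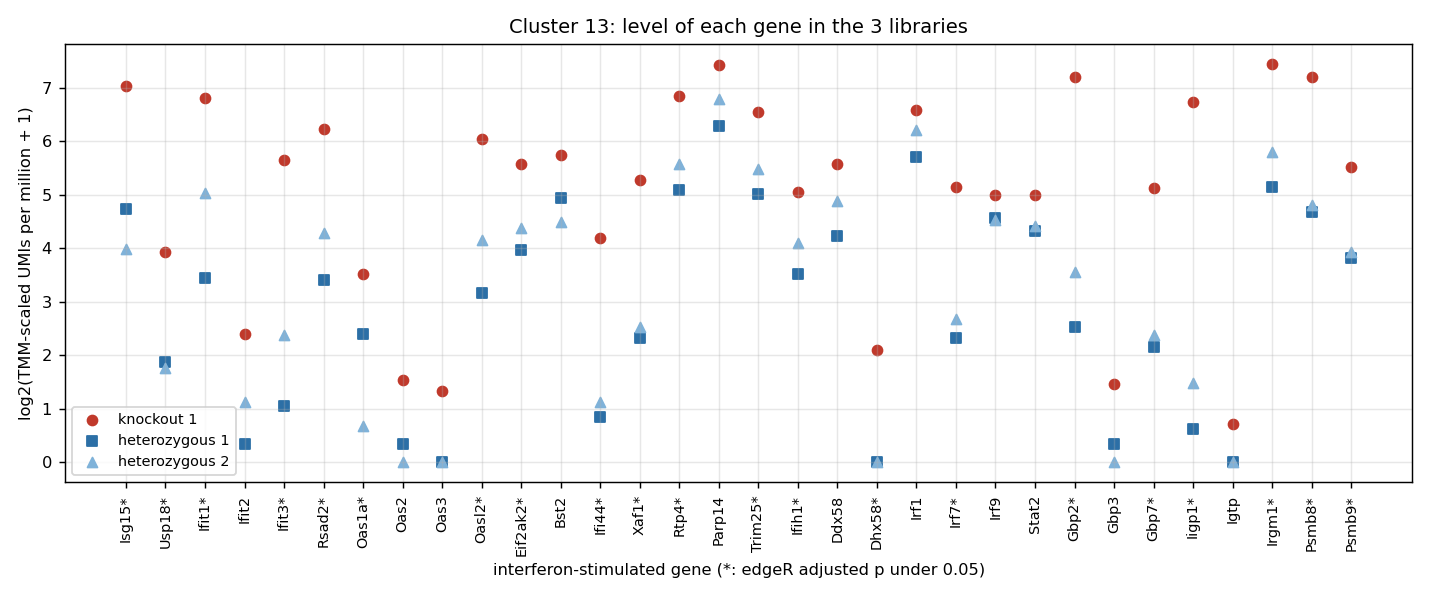
Level of each of the 32 members in cluster 13 as log2 of TMM-scaled CPM plus 1, 1 point per library, with an asterisk for an edgeR adjusted p under 0.05. The knockout point is above both heterozygous points for every member, least so for Irf1 and Irf9.

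The signal was carried by many cells of the cluster rather than by all of them. In the knockout 225 of 396 cells held a type I-like UMI and 232 a gamma-like UMI, and the 10 richest cells held 30.8% and 36.7% of these UMIs. Cells with UMIs of at least 2 genes of each group made up 24.2% of knockout cells (96 of 396, exact 95% interval 20.1 to 28.8) against 1.37% (0.373 to 3.46) and 4.65% (1.28 to 11.5) in the heterozygous. Median depths were 15353.5, 9610 and 12837.5 UMIs. With each cell thinned to 5000 UMIs and 113, 78 and 20 shallower cells left out, the shares were 10.6% of 283 cells, 0 of 215 and 0 of 66, with exact upper limits of 1.70% and 5.44% (3 counts of the total would give 1.40% and 4.55%). The knockout interval after thinning, 7.27 to 14.8, lay above both limits. Thinned to 1000 UMIs, 16.4% of knockout cells held a type I-like UMI (12.9 to 20.4) against 3.41% and 2.38%, and unthinned shares were 56.8%, 19.1% and 29.1%. Endothelial cells gave 50.8%, 58.3% and 50% thinned and secretory luminal cells 2.15%, 1.96% and 2.41%. Such intervals cover counting error only.

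**Figure D4:**
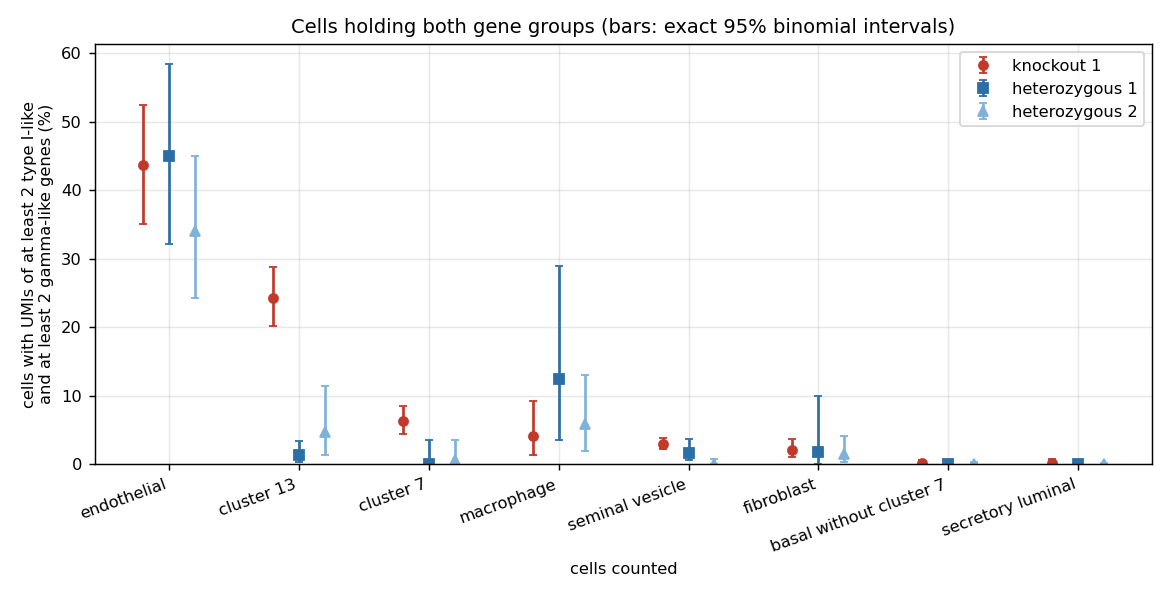
Share of cells, unthinned, with UMIs of at least 2 type I-like and at least 2 gamma-like genes, by set and library, with exact 95% binomial intervals. In cluster 13 the knockout share of 24.2% lies above the heterozygous intervals, while in endothelial cells the 3 intervals overlap.

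Markers of immune cells were scarce in cluster 13. The 7 macrophage markers summed to 5.21, 4.72 and 3.44 CPM, against 7828 to 9733 in macrophages, and 1, 2 and 5 of them were at 0. All 5 dendritic markers were at 0 in each library, and the 7 T or NK markers summed to 1.07, 0.262 and 0 CPM with 3, 6 and 7 of them at 0. Endothelial markers summed to 5.61, 9.71 and 8.04 CPM, with 0, 1 and 3 of 7 at 0, lowest in the knockout. Genes induced by tissue dissociation (Fos, Jun, Egr1 and others, 10 tested) had 0 called, with 2 at an unadjusted edgeR p under 0.05. The depth of the knockout cells was higher, and its part in the result was not tested beyond the thinned shares. A fit on cells of matched least depth, at least 2466 UMIs, called 17 members, all among the 21. It called 273 of 9496 genes in all, against 522 of 9539 in the fit reported. The limit of 2466 UMIs drops shallow cells only and leaves the higher median depth of the knockout in place, so it cannot decide the part of depth.

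Other genes of the pathway moved in part. Socs1, an inhibitor of JAK kinases, had 48 UMIs in cluster 13 of the knockout against 0 and 2 (ratio 16.5, exact interval 4.32 to 140.1; edgeR adjusted p = 0.00516), and the nucleic acid sensor Zbp1 had 45 against 0 and 1 (ratio 30.9, 5.27 to 1248; 0.00323). They were 1 of 5 negative regulators and 1 of 7 sensing genes tested. The receptor chains Ifnar1 (5.82, 5.86 and 5.96 CPM) and Ifngr1 (17.8, 23.5 and 12.5 CPM) were not called, and the rest of their list is not reported here. Of 10 genes of MHC class I antigen presentation 6 rose: Psmb10 (2.20 ± 0.36), the peptide transporters Tap1 (2.14 ± 0.37) and Tap2 (1.38 ± 0.35), H2-K1 (1.52 ± 0.42), Psme1 (1.32 ± 0.36) and the class I transactivator Nlrc5 (1.19 ± 0.36). B2m, the light chain of class I molecules, lay the other way, at 6858 CPM in the knockout against 16438 and 9929, and was not called (-1.02 ± 0.61, adjusted p = 0.422).

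In basal cells most of the difference lay in 1 cluster. Iigp1 was 103 CPM in the knockout against 10.0 and 6.68 (3.62 ± 0.26, 2.10e-22), Gbp2 was 88.9 against 17.9 and 10.0 (2.67 ± 0.25, 2.16e-15), and Isg15 was 42.3 against 11.1 and 7.27 (2.20 ± 0.27, 3.62e-10). Irgm1, Ifit1, Parp14, Stat2, Rtp4, Gbp3 and Irf9 completed the 10 smallest adjusted p-values, with log2 fold changes of 1.14 to 3.38, and the knockout lay above both heterozygous libraries for each. All 5 gamma-like genes and 2 of 5 type I-like genes rose, Gbp7 from 7.52 and 3.14 to 14.5 CPM and Irf1 from 69.4 and 70.1 to 124 (0.77 ± 0.23). Tap1 (1.27 ± 0.34) and Nlrc5 (1.39 ± 0.32) rose of the MHC class I list. Cluster 7, led by Tmem171 and Clca3a2 and carrying both basal (Krt5, Krt14, Krt17) and proximal luminal (Krt7, Ly6a) markers, held 608, 103 and 157 of the basal cells. It also held every basal Srd5a2 UMI (5, 34 and 28). Its gamma-like level was 700.4, 324 and 226 CPM and its type I-like level 154, 49.3 and 38.5. Without cluster 7 the basal levels were 105, 73.4 and 76.0 and 22.8, 23.1 and 18.8, and 1 member, Stat2 (1.47 ± 0.40, 0.0136), was called in place of 15. Of all genes 275 of 11867 were called in that fit, so 1 member is not read as a result about the list. In cluster 7 alone 5 of 22 were called, against 305 of 7005 for all genes: Iigp1 (2.70 ± 0.30, 1.70e-11), Gbp2 (1.83 ± 0.28), Isg15 (2.28 ± 0.34), Ifit1 (2.63 ± 0.70) and Parp14 (0.89 ± 0.27). Cluster 7 was both a larger share of basal cells in the knockout and higher in these genes there.

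In seminal vesicle-like cells the type I-like genes had the smallest adjusted p-values, at low levels. Summed type I-like CPM were 52.9, 10.4 and 6.30, against 50.9 and 21.5 in shallow barcodes of the knockout and heterozygous 2. The differences that follow are between libraries and are not read as expression by the class as a whole. In the knockout, 10 cells held 41.4% of its 3054 type I-like UMIs. Cells with UMIs of at least 2 type I-like genes were 7.38%, 2.24% and 0.578%. These shares are unthinned, at median depths of 26519, 12758 and 16367 UMIs. Rsad2 was 16.8 CPM against 0.848 and 0.877 (4.28 ± 0.37, 9.70e-29), Isg15 was 46.9 CPM against 4.97 and 3.07 (3.59 ± 0.28, 7.11e-35), and Ifit1 was 19.4 against 1.70 and 0.731 (4.10 ± 0.35, 9.37e-30). Irf7, Usp18, Oasl2, Irgm1, Xaf1, Rtp4 and Bst2 completed the 10 smallest adjusted p-values, with log2 fold changes of 1.47 to 3.86. In each both heterozygous values lay under the knockout value. Iigp1 was called (0.96 ± 0.29, adjusted p = 0.0148) although the knockout, at 12.2 CPM, lay between the heterozygous values of 13.3 and 0.292. Iigp1 and the endothelial marker Flt1 were among the leading genes of cluster 22, and its 31 cells of heterozygous 1 held 207 of that library's 468 gamma-like UMIs of the class, beside 556 CPM of endothelial markers (349 in the knockout, 636 in heterozygous 2). The class was not alike between libraries. Of 1681 knockout cells, 767 were in cluster 12, which had a median of 52351.5 UMIs per cell and 8 and 1 heterozygous cells, and 1 cell of it held 312 of its 2757 type I-like UMIs. In cluster 4, shared by the libraries (502, 316 and 491 cells), 4 of 24 members were called, against 90 of 11539 for all genes: Iigp1 (3.56 ± 0.76, 0.0364), Ifit1 (3.65 ± 0.74, 0.0294), Gbp2 (2.12 ± 0.46, 0.0409) and Rtp4 (1.20 ± 0.26, 0.0393). Type I-like CPM in cluster 4 were 16.2, 4.19 and 5.14, under the level of shallow barcodes in the knockout and heterozygous 2. Dissociation-induced genes moved beside the members in this class, with 4 of 10 higher (Egr1, Atf3, Junb and Nr4a1; Egr1 by 1.30 ± 0.26), and their part in the result was not tested. Of the MHC class I list 4 of 10 rose, Tap1 (1.57 ± 0.29), B2m (1.37 ± 0.38), Tap2 (1.20 ± 0.28) and Psmb10 (0.95 ± 0.30), and of 5 negative regulators Socs1 (2.20 ± 0.62).

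In macrophages 3 type I-like genes were lower in the knockout, a call that none kept with DESeq2 and 1 kept with no filter on low counts. Ifit1 was 47.0 CPM in the knockout against 268 and 292 (-2.71 ± 0.46, edgeR adjusted p = 7.37e-07), Isg15 was 278 against 682 and 626 (-1.38 ± 0.37, 0.0133), and Rsad2 was 278 against 560 and 647 (-1.26 ± 0.37, 0.0388). In all 3 the heterozygous libraries were close and the knockout well under both. Ifit2 lay under both too but was not called (-1.83 ± 0.65, adjusted p = 0.154). None of the gamma-like genes was called, and 4 of 5 lay above both heterozygous libraries, as did 41.1% of all genes, such as Iigp1 with 22, 2 and 4 UMIs. Ifngr1 rose in macrophages (233 against 53.7 and 87.7 CPM; 1.52 ± 0.42, 0.0208). The class held 123, 32 and 86 cells and was fitted with a lower cell minimum of 30, and 10 cells held 61.5%, 88.7% and 77.5% of its type I-like UMIs. The dissociation-induced gene Atf3 fell beside them (366 against 713 and 835 CPM; -1.23 ± 0.36, adjusted p = 0.039), 1 called of 8 such genes, and its part in the result was not tested.

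Stromal, ionocyte and luminal sets showed single genes. Gbp2 fell in smooth muscle, to 71.6 CPM against 180.4 and 167 (-1.35 ± 0.26, 0.0213), with 12 of 20 members below both heterozygous libraries against 28.3% of all genes. Iigp1 rose in pericytes (223 against 65.4 and 39.0 CPM; 2.02 ± 0.39, 5.19e-05), fibroblasts (150.1 against 51.4 and 52.0; 1.38 ± 0.40, 0.038) and ionocytes (15.0 against 7.88 and 4.07; 1.44 ± 0.41, 0.0296). Summed gamma-like CPM of ionocytes (97.7, 51.0 and 48.1) lay near those of shallow barcodes (86.9 in the knockout, 40.7 in heterozygous 2). The ionocyte Iigp1 difference is therefore between libraries and is not read as expression by the cells. Fibroblast Gbp2 also rose (121 against 15.4 and 57.0; 1.40 ± 0.41, 0.0426), as did Rtp4 in ionocytes (37.5 against 20.8 and 13.7; 1.15 ± 0.31, 0.0131) and Isg15 in proximal luminal cells (35.2 against 13.1 and 15.0; 1.35 ± 0.39, 0.0305). In proximal luminal cells the heat-shock genes Hspa1a (1.85 ± 0.28) and Hspa1b (1.21 ± 0.29) rose beside it. Each of these genes lay outside the range of the heterozygous pair. Several rest on few UMIs, such as 57, 14 and 16 for Iigp1 in ionocytes and 150, 3 and 23 for Gbp2 in fibroblasts.

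In the sets with no call, the largest differences outside both heterozygous libraries did not pass the test. Secretory luminal Gbp2 was 2.94 CPM against 0.361 and 0.704 (2.40 ± 0.51, adjusted p = 0.325), Gbp7 1.56 against 0.567 and 0.443, and Iigp1 1.68 against 0.876 and 0.496. Endothelial Ifit3 was 138 against 62.8 and 43.6 CPM (1.27 ± 0.39, adjusted p = 0.0764), Irf1 was 398 against 708 and 535 (-0.74 ± 0.30, 0.352), and Oas1a had 3, 9 and 3 UMIs. Endothelial members lay on both sides: 9 of 28 above both heterozygous libraries (39.3% of all genes) and 10 below (27.2%). In cluster 5 these were Irgm1 (1.92 ± 1.27), Irf9 (1.77 ± 0.49, adjusted p = 0.22) and Stat2 (1.55 ± 0.91). In cluster 16 they were Xaf1 (1.88 ± 1.28), Eif2ak2 (1.37 ± 0.45, adjusted p = 0.0678) and Irf7 (1.29 ± 1.01).

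**Figure D5:**
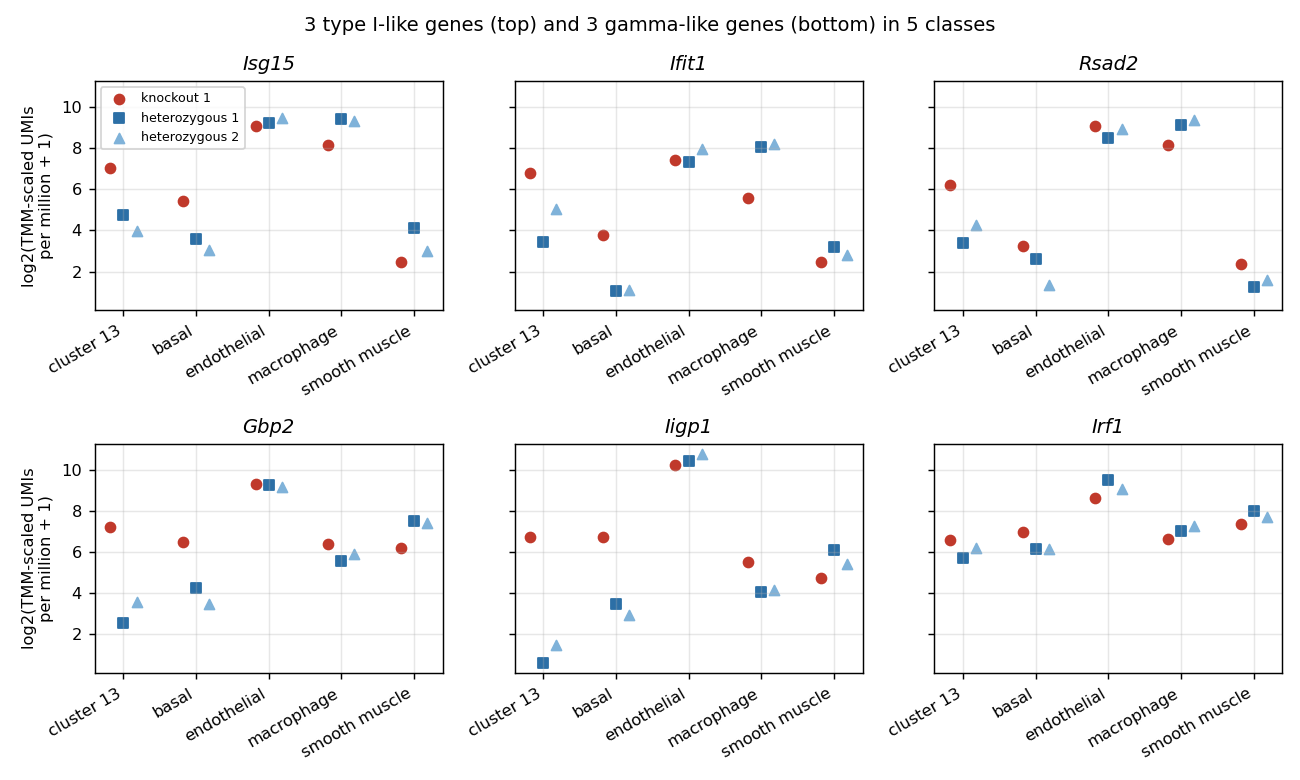
Levels of 3 type I-like genes (Isg15, Ifit1, Rsad2; top) and 3 gamma-like genes (Gbp2, Iigp1, Irf1; bottom) in 5 sets, as log2 of TMM-scaled CPM plus 1, 1 point per library. Knockout points lie above the heterozygous in cluster 13 and basal cells, and under them in macrophages for the top row.

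The differences between sets were tested directly, as the knockout difference in cluster 13 minus that in another set. Against endothelial cells 14 of 28 members were higher and none lower (0.934% of all genes called, 0.618% higher), led by Iigp1 (6.97 ± 0.58, edgeR adjusted p = 1.46e-12) and Gbp2 (4.21 ± 0.50, 4.57e-08). Against macrophages 10 of 27 were higher (1.46% called, 0.946% higher), led by Ifit1 (5.09 ± 0.59, 5.48e-15) and Isg15 (3.89 ± 0.54, 2.07e-10). Against secretory luminal cells 12 of 26 were higher (2.68%, 1.66% higher), led by Iigp1 (5.52 ± 0.66, 7.13e-14). Against cluster 4, Isg15, Gbp2, Irgm1 and Psmb8 were higher of 24 tested (3.24%, 1.92% higher), and 20 were not called. Of these, Ifit1, Usp18 and Parp14 lay the other way, Ifit1 by -1.48 ± 0.62 (edgeR adjusted p = 0.233). Basal cluster 7 and the seminal vesicle-like class as a whole were not compared with cluster 13. These tests share the cluster 13 values, and all use the same 3 libraries. Cluster 13 and these comparisons were added after the genotype differences had been seen. The p-values therefore describe differences already known and are not independent support.

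Interferon transcripts themselves were rare. Ifng, the gamma ligand, gave 50 UMIs in 17 of 240 T or NK cells of the knockout and 3 UMIs in 3 of 70 cells of heterozygous 2, and none was seen in the 13 such cells of heterozygous 1. Outside T or NK cells the sets examined held single Ifng UMIs, including 1 in cluster 13 of the knockout and 1 in that of heterozygous 1. Ifnb1, the type I ligand interferon beta, gave 7, 2 and 18 UMIs in 4, 2 and 7 macrophages and was not called there. Ifne, an interferon of reproductive epithelia, gave 9, 15 and 7 UMIs in proximal luminal cells, where it was the only ligand to pass the filter and was not called. T or NK cells, the source of most Ifng UMIs, were 2.62% of knockout cells and 0.287% and 0.724% of heterozygous cells, and the part of this in the epithelial levels was not tested.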

How the data were processed

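Members, lists and classes were chosen with earlier results of these data known. The authors deposited raw UMI counts by gene and barcode. The submitters' processing notes name Cell Ranger 3.1.0 and the mm10 build; chemistry, cell calling and animals pooled: each not given in the sources used here. Groups follow the genotype labels, and replicates may differ only technically. A minimum of 500 genes and a limit of 15% mitochondrial UMIs left 9983, 4718 and 10587 barcodes, and 815, 185 and 916 were removed as doublets by simulated neighbours, at an expected rate of 0.8% per 1000 barcodes. Libraries were clustered together on 2000 variable genes, 30 principal components, 15 neighbours and Leiden resolution 1.0 (igraph 0.11.9), without interferon genes or RNA shared by shallow barcodes. A cluster was named with at least 3 detected markers (log2 fold of 1.0, 25% of cells). After the data were seen, clusters with seminal vesicle markers but none among the 10 leading genes, and clusters led by genes of another type or luminal without a side, were left unnamed: the first kind held 14.8%, 6.64% and 3.34% of cells, and all unnamed clusters 25.1%, 19.1% and 30.1%. UMIs were summed per library and set with at least 50 cells in every library and tested in edgeR 4.0.16 (filterByExpr, TMM, quasi-likelihood; Benjamini-Hochberg over all genes tested; threshold 0.05; R 4.3.3). Cell type contrasts and differences between sets had the library as a term. Macrophages (at least 30 cells), clusters 5, 13 and 16, subsets of classes and differences between sets were added after seeing the data. Per-library differences used a prior count of 2. A group at 0 was given a floor of 3 UMIs over the group, and 1 to 3 UMIs an exact 95% interval. Alternatives included DESeq2 1.42.0 on the same counts. Members are named as follows: all are accounted for by role; in each class the called members, at most 10 by adjusted p; where none was called, the 3 of largest log2 fold change outside both heterozygous libraries; pathway genes that were called, with the exception below, and Ifnar1, Ifngr1, Ifnb1 and Ifng. Other member values were added. Coordinates are GENCODE vM21 and RefSeq, mm10. Some results are not reported here.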

Additional observations from a re-analysis of the deposited data

Results flagged for a closer look

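The knockout difference of 7 of the type I-like and gamma-like genes was larger in cluster 13 than in endothelial cells by the edgeR test of the difference: Iigp1 by 6.97, Gbp2 by 4.21, Ifit3 by 3.05, Isg15 by 2.87, Ifit1 by 2.76, Gbp7 by 2.67 and Rsad2 by 2.05 on the log2 scale. Against macrophages, where type I-like genes were lower in the knockout, the difference was 5.09 for Ifit1, 4.97 for Iigp1, 4.69 for Ifit2, 4.40 for Ifit3, 3.89 for Isg15, 3.53 for Rsad2 and 3.50 for Gbp2. Adjusted p-values were between 5.48e-15 and 0.0106. Each rests on 1 knockout library, and no group here was large enough to look for a single library far from the rest. Cluster 13 and these comparisons were added after the genotype differences had been seen, so the p-values are not independent support.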

How the results depend on the processing

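No paired analysis was possible because the labels give the libraries no shared replicate numbers and the knockout has 1 library. The count of members called moved by over 1.5 times as follows. With DESeq2 it was 12 in cluster 13, 10 in seminal vesicle-like cells, 4 in basal cells and 0 in proximal luminal cells, ionocytes, fibroblasts, smooth muscle, pericytes and macrophages. With no filter on low counts it was 0 in proximal luminal cells, 1 in fibroblasts, 1 in macrophages, 1 in cluster 16, 2 in smooth muscle and 2 in pericytes. With DESeq2 all genes called also fell, from 522 to 83 in cluster 13, 1282 to 397 in seminal vesicle-like cells and 483 to 64 in basal cells. Secretory luminal cells gained 2 with median-ratio size factors, another seed, resolution 2.0, interferon genes kept in the clustering or doublets kept, and 1 with the stricter cell filter or cells of matched least depth. All genes called there were 14 in the fit reported, 0 with no filter, 83 with DESeq2 and 242 to 278 otherwise. Smooth muscle had 4 with median-ratio size factors, resolution 2.0, interferon genes kept, the stricter filter or matched depth. Proximal luminal cells had 26 at resolution 0.5, where cluster 13 was named proximal luminal and the class grew from 135, 321 and 278 to 539, 654 and 416 cells, and 0 at resolution 2.0 or fitted together with secretory luminal cells. With doublets kept ionocytes had 4 and pericytes 3. At resolution 0.5 cluster 5 had 1 and cluster 16 had 2. Basal cells had 1 without cluster 7 and 5 in cluster 7 alone, and seminal vesicle-like cells 4 in cluster 4 alone. Cluster 13 kept a count within 1.5 times of 21 in all fits but DESeq2. Without heterozygous replicate 2, seminal vesicle Iigp1 turned to -0.13, and without heterozygous replicate 1 it was 4.95 (values with no test), and it was the one called member to change sign. Counting that 4.95, with 1 heterozygous library left out 18 values in cluster 13, 13 in seminal vesicle-like cells, 8 in basal cells, 2 in ionocytes and 1 in fibroblasts moved by more than the standard error of the fold change without changing sign. Shares of cells with a type I-like UMI, not thinned, were 56.8% in cluster 13 and 72.9% in endothelial cells of the knockout, against 16.4% and 50.8% thinned. Counts for the cell type contrasts and for the sets by sign of the type I-like over gamma-like ratio stayed within 1.5 times under their alternatives, with each library left out included for the contrasts, but with broader lists cluster 16 left the positive sets and cluster 5 joined them. Pericytes, macrophages, fibroblasts, endothelial cells and clusters 5 and 16 could not be fitted in some alternatives, for too few cells or, for pericytes at resolution 2.0 or with interferon genes kept, because no such class was named. Depth limits genes such as Oas2, Oas3 and Igtp, which gave at most 60 UMIs each in all kept cells.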
